A study of Mus musculus with 74 samples.

Results

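The subject is a set of 7 transcription factor genes of the developing foregut, Sox2, Sox21, Trp63, Pitx1, Nkx6-3, Osr1 and Osr2, described across every RNA-seq group of a study of mouse stomach and intestine. The genes were chosen by name, and all 7 are among the 24015 genes of the deposited count table. The table was read for 31 RNA libraries in 15 groups, with 2 libraries in each group except 1 that holds 3. Wild-type CD1 embryos gave epithelium of forestomach and hindstomach at E12, E14 and E16, of midgut at E12 and E14, and of small intestine at E16 and E18. Midgut and small intestine are called intestine below. Knockout epithelium came from small intestine of Cdx2f/f mice on a B6;129 mixed background. Those labelled as deleted at E10 carried Shh-Cre, with no tamoxifen named in the labels, and were taken at E16 (3 libraries). Those labelled as deleted at E13 or E15 carried a tamoxifen-inducible Villin-Cre, received 5 mg tamoxifen by gavage, and were taken at E16 and E18 respectively. Adult knockout villi came from the distal ileum of Cdx2f/f; Villin-Cre mice given 1 mg tamoxifen for 5 days and killed 3 days later, and the adult controls were Cdx2f/f mice given sunflower oil. The adult groups therefore shared the floxed allele and the background, whereas strain and Cdx2 deletion cannot be told apart in the embryo. Nothing in the labels says that the libraries of a group came from separate animals, so the p-values measure the spread between these libraries.

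The mouse stomach has a forestomach, lined by stratified squamous epithelium like that of the oesophagus, and a glandular hindstomach; both border an intestine whose identity depends on the homeobox factor Cdx2. Sox2 and Sox21 are related HMG-box factors of the anterior gut. Trp63 encodes p63, the factor that establishes basal cells of stratified epithelia. Pitx1 is a homeobox factor of hindlimb and pituitary, Nkx6-3 a homeobox factor of the gastric antrum that is needed for gastrin cells, and Osr1 and Osr2 are the mouse odd-skipped zinc-finger factors, known best in kidney, limb and palate mesenchyme. In intestine that loses Cdx2 early, foregut genes are known to appear.

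Library totals ran from 5970227 to 62463167 reads assigned to genes, and the E16 forestomach libraries were the shallowest. Levels are given as CPM, counts scaled to a common library size with edgeR, so they compare a gene between groups and not 1 gene with another. In these bulk samples, fewer cells of a type and less RNA per cell cannot be told apart. Several libraries stood apart from their labels. Cdx2, the intestinal factor, was 116 and 160 CPM in the E12 hindstomach libraries, as high as the 153 and 115 CPM of E12 intestine, whereas E14 hindstomach had 12.7 and 6.2 CPM. E12 forestomach correlated no better with E14 forestomach (mean Spearman rho 0.944) than with E14 hindstomach (0.954), and its 2 lung markers summed to 20.7 and 21.1 CPM against at most 1.21 CPM in all other libraries. In the libraries labelled as deleted at E13, Cdx2 stood at 213 and 218 CPM, beside 196 and 218 CPM in E16 wild-type intestine. Knockout libraries labelled E15 and adult had more Cdx2 reads than their controls (388 and 371 against 200 and 206 CPM; 472 and 462 against 242 and 248 CPM), and only those labelled E10 had fewer, at 14.5 to 27.5 CPM. Counts over a whole gene include any exons outside the floxed part, so they do not show whether the deletion took place. At E16 the sorted stomach epithelium carried RNA of other cells. Epcam, the sort marker, was 137 and 112 CPM in E16 forestomach against 400 to 1506 CPM in the other wild-type embryonic libraries, and the summed level of 15 mesenchyme and smooth muscle markers was 21380 and 26550 CPM in E16 forestomach, 7363 and 7716 CPM in E16 hindstomach, 1508 and 1643 CPM in E16 intestine and at most 386 CPM in the other embryonic libraries.

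A gene was called different between 2 groups when the adjusted p of edgeR's quasi-likelihood test was below 0.05 and the log2 fold change was at least 1 in size. Between forestomach and intestine 7 of the 7 genes were called at E12, where 10.1% of all 17239 genes tested were called, 6 at E14 (11.9% of all genes) and 6 at E16 (35%). Between hindstomach and intestine the counts were 5 at E12 (9.28% of all genes), 6 at E14 (6.83%) and 7 at E16 (25.7%). Forestomach and hindstomach differed in 6 genes at E12 (7.11%), 4 at E14 (8.46%) and 5 at E16 (20.1%). The plot of wild-type levels shows the patterns behind these counts. Sox2, Sox21 and Trp63 were high in both stomach parts or in forestomach and nearly lost from intestine. Pitx1 was highest in forestomach, and Nkx6-3 changed places between the 2 stomach parts. Osr1 was highest in 1 of the stomach parts at each of E12, E14 and E16, and Osr2 was high in intestine.

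**Figure D1:**
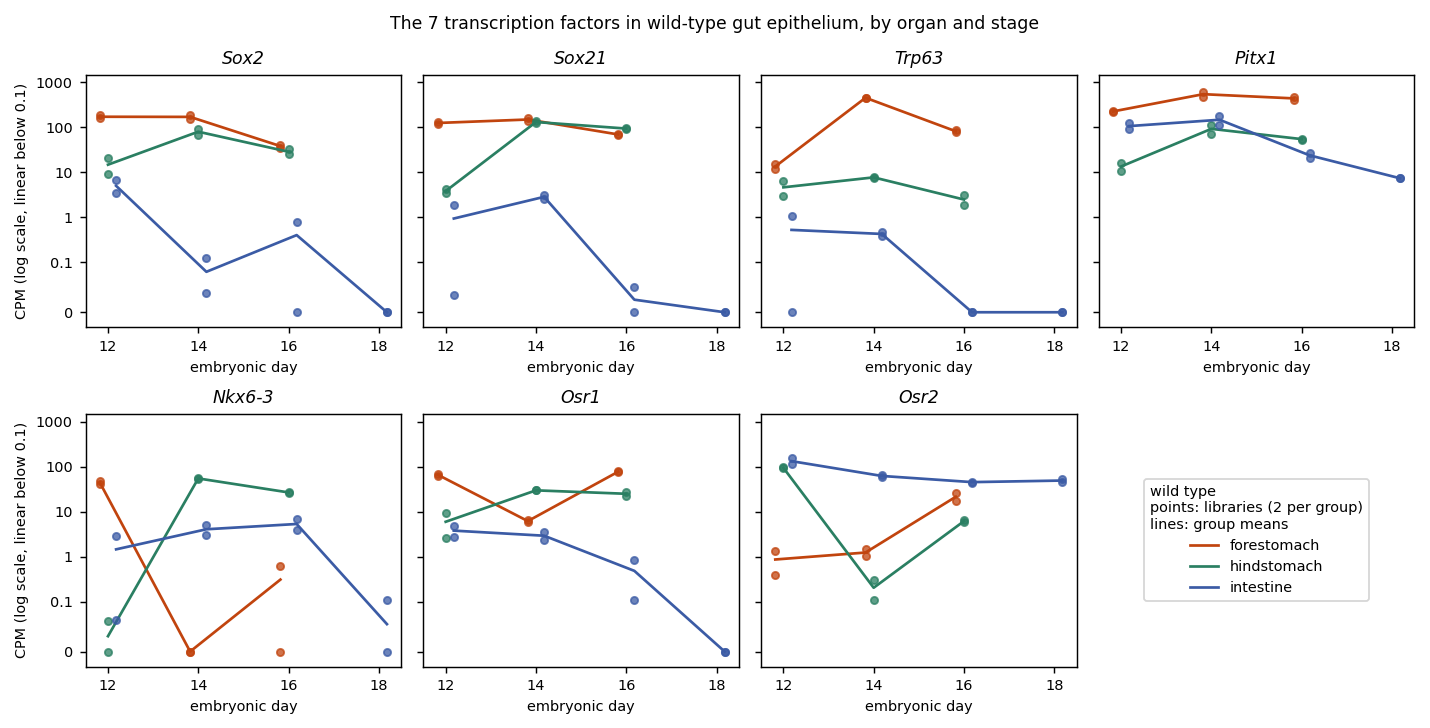
CPM (vertical, log scale that is linear below 0.1) of the 7 genes in wild-type forestomach, hindstomach and intestine against embryonic day; points are libraries, 2 per group, and lines join group means. Trp63 in forestomach peaks at E14 with 455 and 458 CPM, and Osr2 stays above 44 CPM in every intestinal library.

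Sox2, which encodes an HMG-box factor that is required for foregut identity, was highest in forestomach at E12 and E14, whose libraries overlapped, and in hindstomach at E14. Forestomach libraries had 185 and 160 CPM at E12, 190 and 153 CPM at E14 and 41.4 and 35.4 CPM at E16. Hindstomach libraries had 20.6 and 9.07 CPM at E12, 92.3 and 68.2 CPM at E14 and 32.4 and 25.1 CPM at E16. The 5 neural crest and enteric markers summed to 442 and 449 CPM in E16 hindstomach and 44.8 and 47.4 CPM in E16 intestine. Their part in the E16 Sox2 level of hindstomach was not tested. The intestine went from 6.63 and 3.41 CPM at E12 to 0.123 and 0.0394 CPM at E14 (9 reads and 1 read), and had 0.805 and 0 CPM at E16. No read was counted at E18, which allows up to 0.247 and 0.165 CPM, nor in adult ileum. Thus every stomach library lay above every intestinal library of its stage. The difference from intestine was 5.11 ± 0.49 log2 units (SE) for forestomach at E12 (adjusted p = 1.88e-06), 10.68 ± 0.70 at E14 (adjusted p = 7.65e-09) and 6.51 ± 0.63 at E16 (adjusted p = 1.78e-07). Hindstomach exceeded intestine by 9.59 ± 0.69 at E14 (adjusted p = 6.7e-08) and 6.09 ± 0.62 at E16 (adjusted p = 7.5e-07). The size of both E16 values rests on intestine replicate 1, without which no intestinal read was left; the fitted values were then 12.87 and 12.45, which are no bounds, and both were called. At E12 that difference was 1.56 ± 0.44 (adjusted p = 0.0248), and it was not called without hindstomach replicate 1 (0.86) or intestine replicate 2 (1.16). Within the intestine the fall from E12 to E14 was called at -5.59 ± 0.69 (adjusted p = 1.95e-05), but not in the fit of the compared groups alone (-5.82, adjusted p = 0.0627). The fall in forestomach from E14 to E16 was 2.16 ± 0.44 log2 units (adjusted p = 0.000524). Over the same step Epcam went from 806 and 825 to 137 and 112 CPM, the 4 epithelial markers from 2845 and 2945 to 761 and 717 CPM and the 6 blood markers from 2.18 and 1.08 to 13940 and 19000 CPM in forestomach, beside the mesenchyme markers given above, and their part was not tested. In hindstomach Sox2 first rose by 2.44 ± 0.44 from E12, whose libraries had 116 and 160 CPM of Cdx2, to E14, with 12.7 and 6.2 CPM of Cdx2 (adjusted p = 0.000442), and then fell by 1.48 ± 0.42 (adjusted p = 0.0116), a fall that was not called without E14 replicate 1 (-1.25) or E16 replicate 2 (-1.31). Between forestomach and hindstomach Sox2 was called at E12 (3.54 ± 0.45, adjusted p = 4.37e-05) and not at E14 (1.09 ± 0.41, adjusted p = 0.111) or E16 (0.42 ± 0.43, adjusted p = 0.502). The E14 difference was called in 3 of its 15 alternatives. These were a replicate block (adjusted p = 0.0409), the fit of the compared groups alone (0.00432) and thinning to the shallowest library (0.047). Sox2 lies within the span of the non-coding gene Sox2ot in RefSeq, but Sox2ot had at most 76 reads in any library; whether reads were counted by strand is not given in the sources used here.

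The promoter table at hand held Sox2 and Sox21, 2 of the 7 genes, and both are shown because these HMG-box genes had similar levels across organs. Each sequence is the 250 bases before the RefSeq transcription start on GRCm38.p6, the first at chr3:34649745-34649994 on the plus strand and the second at chr14:118237031-118237280 on the minus strand. Capitals mark matches on either strand to TTTAT, the core of CDX sites, and to ACAAAG or ACAATG, forms of the SOX core.
Sox2: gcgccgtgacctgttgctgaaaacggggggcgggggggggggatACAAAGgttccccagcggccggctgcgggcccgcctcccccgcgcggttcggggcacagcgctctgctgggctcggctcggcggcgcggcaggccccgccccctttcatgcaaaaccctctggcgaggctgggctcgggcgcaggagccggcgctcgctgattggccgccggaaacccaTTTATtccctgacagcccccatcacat
Sox21: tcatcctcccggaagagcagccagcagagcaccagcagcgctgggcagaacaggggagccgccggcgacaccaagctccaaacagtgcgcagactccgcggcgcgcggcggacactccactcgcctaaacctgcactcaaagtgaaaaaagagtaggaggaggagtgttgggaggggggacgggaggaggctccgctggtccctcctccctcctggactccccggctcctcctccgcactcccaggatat
The Sox2 window had 1 TTTAT, which starts 27 bases before the start site, and 1 ACAAAG, which starts 206 bases before it. Among 32841 RefSeq promoter windows of this length, 37.3% held TTTAT, 16.5% ACAAAG and 10.7% ACAATG, so both matches are of common kinds. The Sox21 window held none of the 3 motifs. Both windows were rich in G and C, at 72% for Sox2 and 65.2% for Sox21 against a median of 52.4%.

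Sox21, a repressive relative of Sox2, followed a similar course with a stronger presence in hindstomach. Forestomach had 119 and 132 CPM at E12, 140 and 159 CPM at E14 and 72.1 and 67.4 CPM at E16. Hindstomach had 4.25 and 3.41 CPM at E12, 123 and 141 CPM at E14 and 95.7 and 92.8 CPM at E16, so that after E12 the hindstomach libraries were level with those of forestomach or above them. The 4 epithelial markers summed to 761 and 717 CPM in E16 forestomach and 4960 and 4763 CPM in E16 hindstomach. In E14 forestomach they summed to 2845 and 2945 CPM. Their part in the Sox21 levels of E16 forestomach was not tested. Intestine had 0.0338 and 1.85 CPM at E12 (1 and 58 reads), 3.14 and 2.56 CPM at E14, and a single read in the E16 libraries. Forestomach exceeded intestine by 7.03 ± 0.59 log2 units at E12 (adjusted p = 2.31e-07) and by 5.69 ± 0.54 at E14 (adjusted p = 3.5e-07). The E12 value was 11.65 without intestine replicate 2. At E16 the pooled counts, scaled for depth, stood in a ratio of 2660 (95% exact binomial interval, counting error only, 477 to 105000) for forestomach over intestine and of 3600 (646 to 142000) for hindstomach over intestine; both differences were called. The rise in hindstomach from E12 to E14 was 5.10 ± 0.52 (adjusted p = 1.08e-06), which rests on the E12 libraries with their high Cdx2. Forestomach and hindstomach did not pass the test at E14 (0.19 ± 0.43, adjusted p = 0.914) or at E16 (-0.44 ± 0.44, adjusted p = 0.494). The E14 to E16 fall in forestomach, -1.10 ± 0.44 (adjusted p = 0.0446), was not called without any 1 of its 4 libraries, and scaling by relative log expression gave -0.81. In intestine the level was called higher at E14 than at E12 (1.59 ± 0.56, adjusted p = 0.0384), but not without E12 replicate 1 (0.65) or either E14 library (1.42 and 1.72), and was 6.22 without E12 replicate 2. It was lower at E16 than at E14, by a count ratio of 114 (20.4 to 4530).

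Trp63, the basal cell factor, was nearly a forestomach gene. Its forestomach level was 15.1 and 12 CPM at E12, 455 and 458 CPM at E14 and 77.3 and 86.7 CPM at E16. Hindstomach stayed between 1.91 and 7.93 CPM at all 3 stages, and intestine between 0 and 1.05 CPM at E12 and E14. No Trp63 read was counted in E16 or E18 wild-type intestine. The forestomach rise from E12 to E14 was 5.08 ± 0.59 log2 units (adjusted p = 1.04e-05) and the later fall was 2.48 ± 0.53 (adjusted p = 0.000831), in the libraries where mean Epcam went from 815 to 125 CPM, whose part was not tested. The rise starts from E12 libraries whose 2 lung markers summed to 20.65 and 21.14 CPM, and their part was not tested either. Forestomach over hindstomach came to 1.54 ± 0.54 at E12, which missed the threshold (adjusted p = 0.0885), then 5.88 ± 0.62 at E14 (adjusted p = 3.89e-06) and 5.04 ± 0.62 at E16 (adjusted p = 8.53e-06). The difference between the E16 and E12 contrasts was itself called, at 3.50 ± 0.78 (adjusted p = 0.00304). Against intestine, forestomach was 4.64 ± 0.68 higher at E12 (adjusted p = 0.000168) and 10.10 ± 0.77 at E14 (adjusted p = 4.74e-08), and hindstomach 3.10 ± 0.68 at E12 (adjusted p = 0.00577; 2.46 and not called without hindstomach replicate 1) and 4.21 ± 0.68 at E14 (adjusted p = 0.000427). Against the E16 intestine, where all libraries were at 0, Trp63 was at least 472-fold higher in forestomach and at least 11.7-fold higher in hindstomach, with 3 reads per library as the floor. In hindstomach the fall from E14 to E16 (-1.64 ± 0.58, adjusted p = 0.0366) was not called without any 1 of its 4 libraries (-1.34 to -2.02), nor with relative log expression scaling (adjusted p = 0.0562). E12 intestine replicates differed, with 0 and 33 reads, and without the second the E12 values against intestine were 11.33 and 9.79, fitted against 0 reads and so no bounds.

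The genes that p63 works with were counted from lists of known squamous genes. From E12 to E14 in forestomach, 13 of 16 basal squamous genes and Trp63 targets and 11 of 14 squamous transcription factors rose, none fell, where 12.7% of all genes were called, and the list medians were 3.59 and 3.52 log2 units against -0.03 for all genes. Trp63 rose over the same interval. The E12 forestomach libraries are those whose 2 lung markers summed to 20.65 and 21.14 CPM, and their part in these counts was not tested. From E14 to E16, while Trp63 fell, 3 of the 16 target genes rose and 4 fell (median -0.48, all genes 0), and among the 14 factors 2 rose and 2 fell (median -0.38). These shares are near the 37.7% of all genes called in that comparison. In forestomach against hindstomach at E16, where 20.1% of all genes were called, 8 of the 16 were higher, 2 lower and 6 not called. Among the basal cell keratins, Krt5 was 6.32 ± 0.85 log2 units above hindstomach (adjusted p = 1.58e-05), Krt14 7.45 ± 1.01 (adjusted p = 1.68e-05) and Krt15 5.12 ± 0.49 (adjusted p = 1.77e-07). The integrin gene Itga6 (-1.59 ± 0.13, adjusted p = 1.63e-08) and Fermt1, which encodes an integrin activator (-1.32 ± 0.18, adjusted p = 1.13e-05), were lower. The 4 epithelial markers summed to 761 and 717 CPM in E16 forestomach and 4960 and 4763 CPM in E16 hindstomach. In E14 forestomach they summed to 2845 and 2945 CPM. Mesenchyme markers summed to 21380 and 26550 CPM in E16 forestomach. The part of either set of markers in the E16 forestomach results of these lists was not tested. Of the 14 squamous transcription factors, 6 were higher in E16 forestomach than in hindstomach, none was lower and 8 were not called (median 2.21). Tfap2c, an AP-2 factor of surface epithelium, was 5.66 ± 1.27 above hindstomach (adjusted p = 0.00238) and Pax9, a paired-box factor of the oral and oesophageal epithelium, 5.07 ± 1.57 (adjusted p = 0.0235).

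Pitx1, the hindlimb and pituitary homeobox factor, was present in every group and highest in forestomach. Forestomach libraries had 237 and 216 CPM at E12, 620 and 476 CPM at E14 and 482 and 403 CPM at E16. Hindstomach had 16.6 and 10.5 CPM at E12, 115 and 70.8 CPM at E14 and 56.4 and 53.5 CPM at E16. Intestine had 90.4 and 124 CPM at E12, 181 and 115 CPM at E14, 21.2 and 26.5 CPM at E16 and 7.31 and 7.47 CPM at E18. Hindstomach minus intestine was -2.98 ± 0.27 log2 units at E12 (adjusted p = 3.05e-07), -0.67 ± 0.24 at E14 (adjusted p = 0.0881) and 1.20 ± 0.25 at E16 (adjusted p = 0.000973), so the order of these organs was opposite at E12 and E16. The E12 value uses the hindstomach libraries with intestinal levels of Cdx2. Within intestine the level fell by 2.63 ± 0.26 from E14 to E16 (adjusted p = 2.47e-07) and by 1.69 ± 0.28 from E16 to E18 (adjusted p = 3.73e-05). Forestomach exceeded hindstomach at each stage, by 4.07 ± 0.28 at E12 (adjusted p = 7.17e-09), 2.56 ± 0.26 at E14 (adjusted p = 8.99e-07) and 3.01 ± 0.26 at E16 (adjusted p = 5.9e-08). Forestomach over intestine widened from 1.08 ± 0.25 at E12 (adjusted p = 0.00538; 0.87 and not called without intestine replicate 1) through 1.89 ± 0.25 at E14 (adjusted p = 1.52e-05) to 4.21 ± 0.28 at E16 (adjusted p = 4.49e-10), and that widening of 3.13 ± 0.36 was called (adjusted p = 1.25e-06).

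Nkx6-3, the antral homeobox factor, marked different organs at different stages. E12 forestomach had 40.7 and 47.9 CPM, and E12 hindstomach had 2 reads in 1 library and none in the other. At E14 the forestomach libraries had no read while hindstomach had 54.5 and 55.2 CPM, and at E16 the 2 parts had 0.617 and 0 CPM (4 reads and none) against 26.3 and 27.3 CPM. Intestine held an intermediate level of 5.05 and 3.08 CPM at E14 and 3.93 and 6.71 CPM at E16, and 0 and 2 reads at E18. Hindstomach was at least 425-fold above forestomach at E14, and intestine at least 24-fold above it. From E12 to E14 the forestomach level fell at least 317-fold, and the hindstomach count ratio of E14 over E12 was 1810 (500 to 14900). The change of the forestomach over hindstomach contrast between E12 and E16 was called (adjusted p = 3.39e-07). Nkx6-2, a paralog, showed the same exchange: 149 and 158 CPM in E12 forestomach against 0.0308 and 0.0299 CPM in E12 hindstomach, and 0.128 and 0.0723 CPM against 48.5 and 48.7 CPM at E14. The library facts given above (Cdx2 in E12 hindstomach, lung markers in E12 forestomach) move with this exchange, and their part in it was not tested. Hindstomach exceeded intestine by 3.74 ± 0.73 log2 units at E14 (adjusted p = 0.0021) and by 2.33 ± 0.70 at E16 (adjusted p = 0.0137; 2.00 and not called without intestine replicate 1). At E12 hindstomach was called below intestine, but the intestinal libraries had 84 and 2 reads and the call was lost without the first of them (-0.96).

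Osr1, a zinc-finger factor of early intermediate and lateral mesoderm, dipped in forestomach at E14. Its forestomach level was 70.3 and 62.9 CPM at E12, 5.95 and 6.4 CPM at E14, and 76.1 and 78.5 CPM at E16. Hindstomach had 9.32 and 2.60 CPM at E12, 29.8 and 29.8 CPM at E14 and 27.5 and 22.5 CPM at E16. Intestine declined from 4.77 and 2.80 CPM at E12 through 3.47 and 2.37 CPM at E14 and 0.855 and 0.109 CPM at E16 to no read at E18. The fall of forestomach Osr1 from E12 to E14 was 3.43 ± 0.57 log2 units (adjusted p = 0.000353) and the rise to E16 was 3.65 ± 0.58 (adjusted p = 5.62e-05). Consequently forestomach lay above hindstomach at E12 (3.48 ± 0.57, adjusted p = 0.00056) and below it at E14 (-2.27 ± 0.55, adjusted p = 0.0101), with no overlap of libraries. The E14 call was lost without either forestomach library (-2.22 and -2.33). At E16 forestomach was again above (1.63 ± 0.53, adjusted p = 0.0265), but that call was lost without any 1 of the 4 libraries (1.49 to 1.78). In forestomach the mesenchyme markers summed to 175 and 181 CPM at E12 and 151.7 and 143.9 CPM at E14. At E16 they summed to 21380 and 26550 CPM, and their part was not tested. The 2 lung markers summed to 20.65 and 21.14 CPM in E12 forestomach, and their part was not tested either. Hindstomach exceeded intestine by 3.33 ± 0.57 at E14 (adjusted p = 0.000806) and 5.65 ± 0.70 at E16 (adjusted p = 6.96e-06). It did not pass against intestine at E12 (0.655, adjusted p = 0.451). Forestomach exceeded intestine by 4.136 at E12 (adjusted p = 0.000147) and 7.282 at E16 (adjusted p = 3.08e-07). At E14 it did not pass (1.064, adjusted p = 0.211). In intestine the E14 to E16 fall was called (-2.57 ± 0.68, adjusted p = 0.00589; -4.70 without E16 replicate 1, and -1.79 and not called without E16 replicate 2).

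Osr2, the paralog of Osr1, had a higher mean in intestine than in either stomach part at each of E12, E14 and E16. The intestine had 152 and 114 CPM at E12, 65.8 and 58.9 CPM at E14, 44.2 and 46.6 CPM at E16 and 46.3 and 52.2 CPM at E18. E12 hindstomach, whose libraries had intestinal levels of Cdx2 (116 and 160 CPM), was at 91.6 and 97.3 CPM, then 0.106 and 0.301 CPM at E14 and 6.52 and 5.79 CPM at E16. Forestomach had 1.34 and 0.388 CPM at E12, 1.46 and 1.01 CPM at E14 and 25.5 and 17.5 CPM at E16. Forestomach was below intestine by 7.32 ± 0.74 log2 units at E12 (adjusted p = 1.87e-06) and by 5.66 ± 0.69 at E14 (adjusted p = 7.66e-06); at E16 the difference of -1.08 ± 0.56 did not pass (adjusted p = 0.123). Hindstomach did not pass against intestine at E12 (-0.49 ± 0.53, adjusted p = 0.583), and was below it at E14 (-8.24 ± 0.84, adjusted p = 2.19e-06) and E16 (-2.88 ± 0.59, adjusted p = 0.000825). The rise from E14 to E16 was 4.13 ± 0.67 in forestomach (adjusted p = 5.68e-05) and 4.90 ± 0.83 in hindstomach (adjusted p = 0.000203), alongside the mesenchyme markers of those libraries; their part was not tested. From E16 to E18 in intestine the Osr2 level changed by 0.12 ± 0.54 (adjusted p = 0.895). Mesenchyme markers went from 1508 and 1643 to 41.2 and 39.2 CPM over that step. The way the epithelium was isolated also changed over it, and the part of either was not tested. Forestomach over hindstomach at E16 (1.80 ± 0.59, adjusted p = 0.0249) was lost without forestomach replicate 1 (adjusted p = 0.152) or either hindstomach library (1.89 and 1.72).

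**Figure D2:**
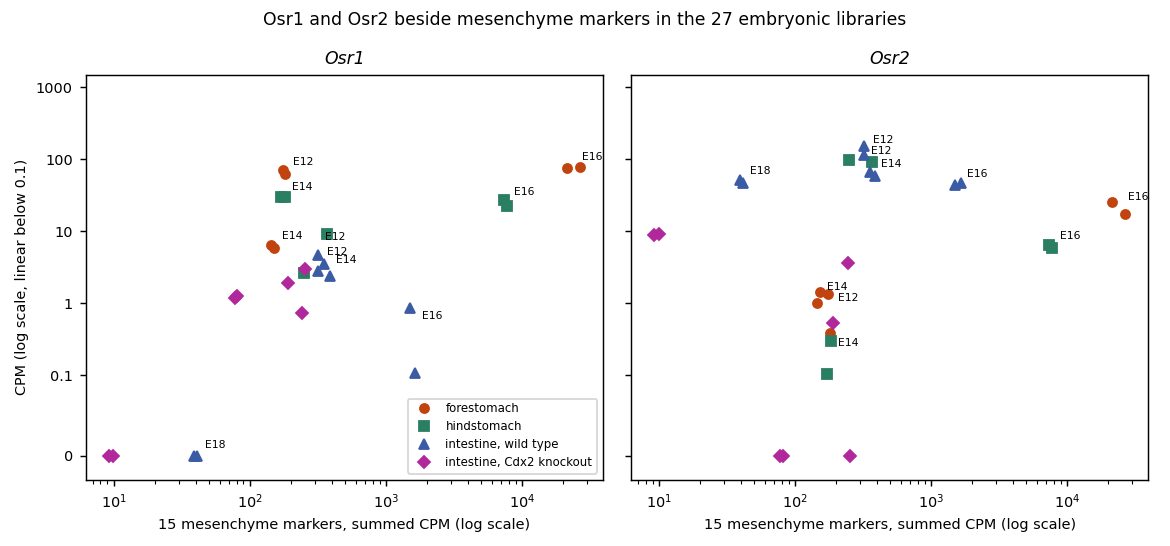
CPM of Osr1 (left) and Osr2 (right) against the summed CPM of 15 mesenchyme and smooth muscle markers in the 27 embryonic libraries, on log scales with the vertical one linear below 0.1; symbols give the organ and labels the stage of the wild-type groups. The E16 forestomach libraries lie furthest right at 21380 and 26550 CPM of markers, and E12 forestomach, with 70.3 and 62.9 CPM of Osr1, lies at 175 and 181 CPM of markers.

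Across stages, 4 of the 7 genes were called between E12 and E14 in forestomach (12.7% of all genes), 5 between E14 and E16 (37.7%), and in hindstomach 6 (17.2%) and 3 (22%). In intestine the counts were 2 (16.2%), 3 (25.6%) and, from E16 to E18, 4 (42.1%). That last step also went from trypsin and an Epcam sort to villi released with EDTA, which cannot be told apart from stage, and mesenchyme markers went from 1508 and 1643 to 41.2 and 39.2 CPM, whose part was not tested. All 4 called genes of the step were lower at E18: Pitx1, Nkx6-3 by a count ratio of 80 (21.8 to 665; its 2 E18 reads are in replicate 2), and Sox2 and Osr1, which had 16 and 19 reads at E16 and none at E18. The calls for Sox2 and Osr1 were lost without E18 replicate 2 (adjusted p = 0.169 and 0.0908), that of Osr1 also without E16 replicate 1 (adjusted p = 0.217), and that of Sox2 also without E18 replicate 1 (adjusted p = 0.104). Without E16 replicate 1, Sox2 had no read in either group. By E18, then, Osr2 and Pitx1 were the genes of the set still above 2 reads in wild-type intestine. In adult ileum, normalised apart from the embryonic libraries, Osr2 had 120 and 123 CPM, Pitx1 7.63 and 8.84 CPM and Sox21 5 and 6 reads, and the other 4 genes had no read.

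**Figure D3:**
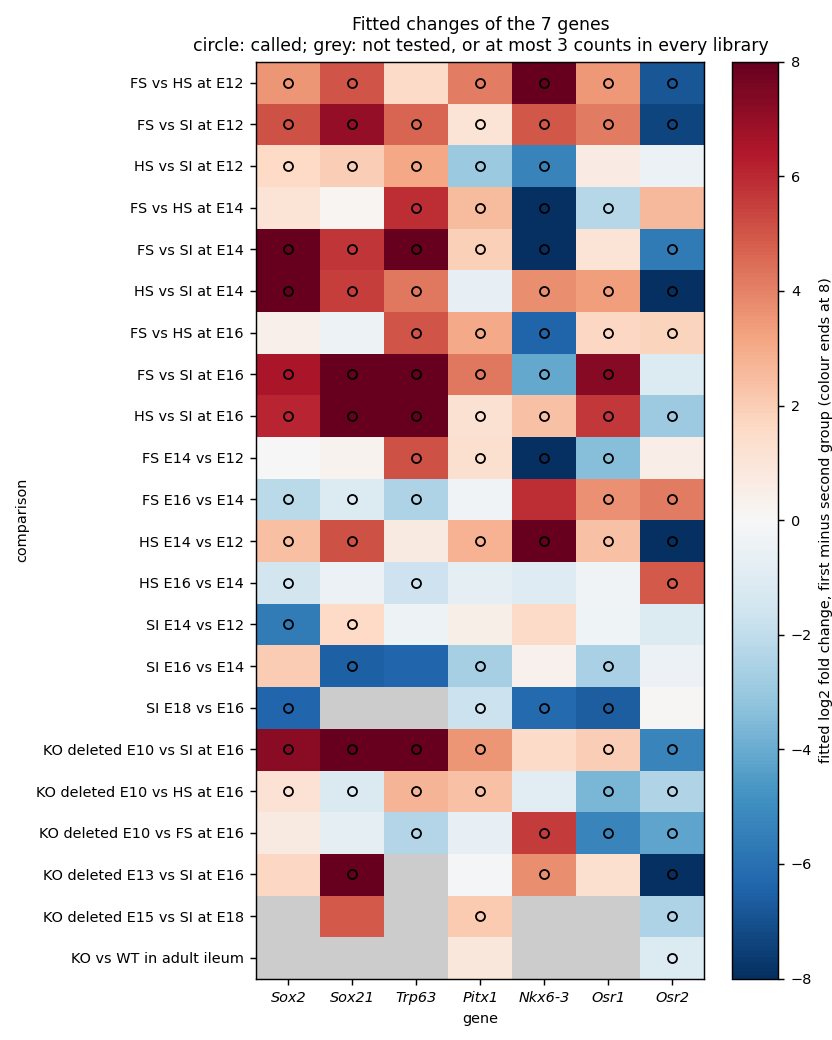
Fitted log2 fold changes (colour, ending at 8 in size; first group minus second) of the 7 genes in 22 comparisons, with circles on called changes and grey where a gene was not tested or had at most 3 counts in every library of both groups. FS, HS and SI are forestomach, hindstomach and intestine, and KO is Cdx2 knockout; Osr2 is blue in all 6 comparisons of a stomach part with intestine and is called lower in each knockout against wild-type intestine.

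The groups labelled as Cdx2 knockouts were each set against wild-type intestine of their stage. In the knockout labelled E10, 6 of the 7 genes were called against E16 wild-type intestine, where 51.5% of all genes were called. Sox2 had 66.4, 70.7 and 51.3 CPM against 0.805 and 0 CPM (7.22 ± 0.62 log2 units, adjusted p = 1.39e-08). The size of that value rests on control replicate 1, without which the control had no read (fitted value 13.57, no bound). Sox21 had 37.2, 39.5 and 50.5 CPM against 1 read in all (count ratio 1570, 281 to 62000). Trp63 had 21.1, 19.5 and 7.91 CPM against no read, which is at least 48.3-fold higher. Pitx1 had 315, 282 and 246 CPM against 21.2 and 26.5 CPM (3.56 ± 0.26, adjusted p = 6.29e-10). For these 4 genes every knockout library lay above both controls. Osr2 went the other way, with 0.534, 0 and 3.58 CPM against 44.2 and 46.6 CPM (-5.30 ± 0.62, adjusted p = 5.8e-07). Osr1, at 1.94, 3.02 and 0.741 CPM, overlapped the controls at 0.855 and 0.109 CPM; its call (1.99 ± 0.68, adjusted p = 0.0181) was lost without control replicate 2 (1.19) or knockout replicate 2 (1.61), and the value was 4.10 without control replicate 1. Nkx6-3 stood at 17.2, 15.1 and 13 CPM against 3.93 and 6.71 CPM with no overlap, and missed the threshold (1.51 ± 0.65, adjusted p = 0.0523). It was called in 6 of its 16 alternatives, among them DESeq2 (adjusted p = 0.0442) and relative log expression scaling (0.0362); over all 16 the adjusted p ran from 0.00609 to 0.265. Mesenchyme markers summed to 190 to 253 CPM in these knockouts against 1508 and 1643 CPM in the controls, and their part in the Osr2 difference was not tested.

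The same libraries were set beside the wild-type E16 stomach to see which stomach part their levels resembled; the 3 comparisons share the knockout libraries. Against forestomach 4 genes were called (53.3% of all genes) and against hindstomach 6 (56.3%), where the median of all genes was itself -0.49 log2 units. Epcam was 1849 to 2439 CPM in these knockouts against 137 and 112 CPM in forestomach and 421 and 400 CPM in hindstomach, and the 4 epithelial markers summed to 8461 to 15210 CPM against 761 and 717 CPM and 4960 and 4763 CPM. Their part in the differences that follow was not tested. Sox2 did not pass against forestomach (0.71 ± 0.40, adjusted p = 0.124) and was above hindstomach (1.13 ± 0.39, adjusted p = 0.0177; 0.95 and not called without hindstomach replicate 2). Sox21 likewise did not pass against forestomach (-0.72 ± 0.40, adjusted p = 0.124) and was below hindstomach (-1.16 ± 0.39, adjusted p = 0.0149), a call lost without either hindstomach library (-1.14 and -1.18) or knockout replicate 2 (-0.94). Trp63 lay between the 2 parts, with -2.32 ± 0.47 against forestomach (adjusted p = 0.000341) and 2.72 ± 0.56 against hindstomach (adjusted p = 0.000384). Pitx1 was 2.36 ± 0.24 above hindstomach (adjusted p = 6.78e-08) and had -0.65 ± 0.22 against forestomach (adjusted p = 0.0141), under the fold minimum. Nkx6-3 was above forestomach (5.6 ± 1.06, adjusted p = 0.000155; 11.55 without forestomach replicate 1, which held its 4 reads) and did not pass against hindstomach (-0.83 ± 0.60, adjusted p = 0.229). Osr1 remained far below both, at -5.30 ± 0.55 against forestomach (adjusted p = 1.85e-07) and -3.67 ± 0.53 against hindstomach (adjusted p = 9.43e-06). Osr2 was also below both (-4.22 ± 0.64 and -2.42 ± 0.65, adjusted p = 1.29e-05 and 0.00302), and its hindstomach value was -1.60 without knockout replicate 2 and -4.36 without replicate 3. The 2 Osr contrasts run alongside 21380 and 26550 CPM (forestomach) and 7363 and 7716 CPM (hindstomach) of mesenchyme markers, whose part was not tested.

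**Figure D4:**
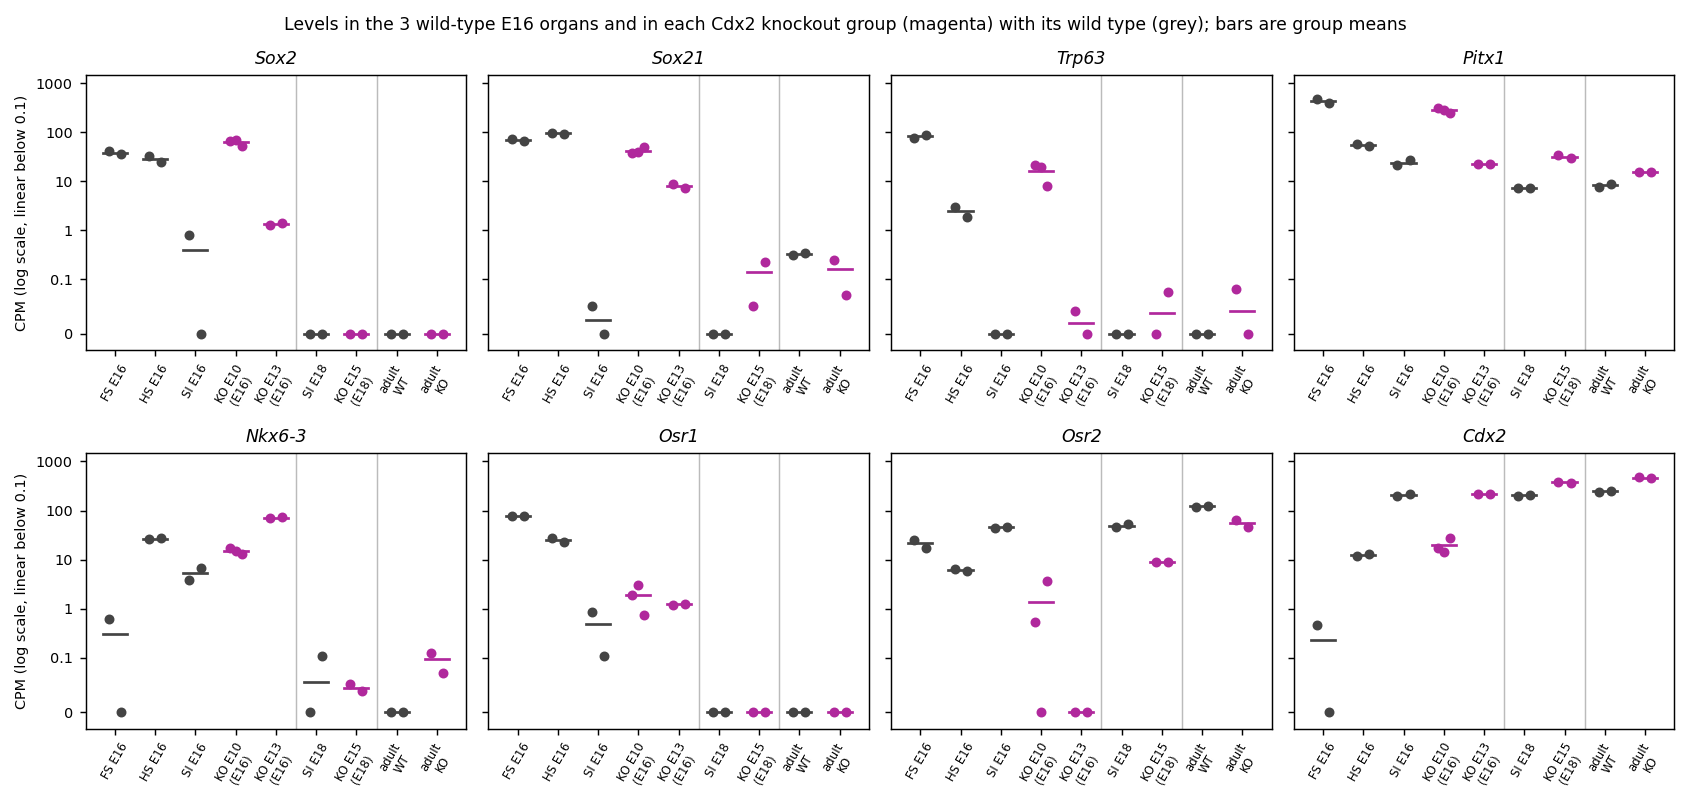
CPM (vertical, log scale that is linear below 0.1) of the 7 genes and Cdx2 in E16 wild-type organs and in each Cdx2 knockout group, in magenta, next to its wild-type group, in grey; points are libraries and bars are means; FS, HS and SI are forestomach, hindstomach and intestine. In the knockout labelled E10, Sox2, Sox21, Trp63 and Pitx1 lie above both E16 intestine libraries, and Osr2 is below its control in all 4 knockout groups.

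Among other genes of these programmes, 8 of 14 squamous transcription factors were higher and 2 lower in the knockout labelled E10 than in E16 intestine. Their median was 3.23 log2 units, or 1.30 with the 5 genes at 0 in a group set to their bound, against -0.10 for all genes, of which 51.5% were called (4122 higher and 4753 lower). With relative log expression scaling 4466 of all genes were called higher and 4336 lower. Sox15, an HMG-box factor of squamous epithelium, had a mean of 14.1 CPM and Pax9 6.28 CPM, and both had no read in the controls. Gata3, a zinc-finger factor, was among those lower (-3.55 ± 0.64, adjusted p = 8.07e-05). Of 16 basal squamous genes, 8 were higher and 4 lower (median 1.92); Krt15 reached a mean of 1572 CPM against 1.61 CPM (9.93 ± 0.63, adjusted p = 7.3e-11). Gastric and shared foregut factors were higher in 8 of 12 and lower in 1 (median 1.33): Foxa2, a forkhead factor of foregut endoderm, by 3.89 ± 0.36 (adjusted p = 1.57e-08), Foxq1 of stomach surface cells by 3.42 ± 0.20 (adjusted p = 3.83e-11), and Gata4 in the other direction (-2.09 ± 0.19, adjusted p = 1.28e-08). None of 14 intestinal factors was higher and 13 were lower (median -3.19), among them Cdx1 (-6.06 ± 0.56, adjusted p = 2.37e-08) and Cdx2 itself. Nkx6-2 stood at 35, 27 and 21.9 CPM against 0.302 and 0.546 CPM.

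In the libraries labelled as deleted at E13, 3 of the 7 genes were called against the same E16 intestine (39.5% of all genes). Nkx6-3 had 70.4 and 72.2 CPM, the highest of any embryonic group, against 3.93 and 6.71 CPM (3.75 ± 0.74, adjusted p = 0.000321). Sox21 had 8.64 and 7.32 CPM against 1 read (count ratio 306, 54.5 to 12100). Osr2 had no read in either library against 44.2 and 46.6 CPM, so it was at least 331-fold lower. Mesenchyme markers summed to 77.6 and 81.3 CPM in these libraries and 1508 and 1643 CPM in the controls, and their part was not tested. Pitx1 at 22.2 and 22.4 CPM did not differ beyond the libraries' spread (-0.10 ± 0.25, adjusted p = 0.78). Sox2 had 1.28 and 1.38 CPM and missed the threshold (1.67 ± 0.73, adjusted p = 0.0659). It was called with DESeq2 (adjusted p = 0.0109), with a replicate block (0.0313) and in the fit without the E12 hindstomach libraries (0.0444). It was also called without control replicate 1, the only control with Sox2 reads. Osr1 had 1.20 and 1.25 CPM (1.31 ± 0.72, adjusted p = 0.14) and was called without that same control (3.43, adjusted p = 0.0201). Trp63 had 1 read. Beside these values stand Cdx2 at the wild-type level and a mean Spearman rho of 0.957 with the E18 knockout libraries, 0.933 with E18 wild-type intestine and 0.84 with E16 intestine.

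In the libraries labelled as deleted at E15 and taken at E18, 2 genes were called (17.5% of all genes). Pitx1 had 33.8 and 29.7 CPM against 7.31 and 7.47 CPM (2.10 ± 0.28, adjusted p = 1.06e-05), and Osr2 had 8.99 and 9.14 CPM against 46.3 and 52.2 CPM (-2.44 ± 0.57, adjusted p = 0.00317). The groups of both genes stood apart. Sox2 and Osr1 had no read in any of the 4 libraries, Trp63 2 reads and Sox21 7 reads in the knockouts and none in the controls, and Nkx6-3 2 reads in each group. In these libraries 3 reads stood for 0.115 to 0.247 CPM. Mesenchyme markers summed to 9.25 and 9.98 CPM in these knockouts and 41.2 and 39.2 CPM in the controls, and 5 immune markers to 11.6 and 12.9 against 256 and 254 CPM; their part was not tested.

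In adult ileum 2 of the 7 genes passed the filter on low counts and 1 was called (20.4% of 12444 genes). Osr2 had 64.8 and 46.5 CPM in knockout and 120 and 123 CPM in control villi (-1.12 ± 0.19, adjusted p = 0.0145). The call was lost without knockout replicate 2 (-0.90, under the fold minimum) and without control replicate 2 (-1.11). With all 31 libraries in 1 fit, Osr2 was not called (-0.996, adjusted p = 0.141) and Pitx1 was (1.019, adjusted p = 0.00553). Pitx1 had 15.1 and 15.6 against 7.63 and 8.84 CPM, a difference of 0.89 ± 0.17 (adjusted p = 0.0189) that is under the fold minimum. The remaining genes had at most 6 reads per library and were not tested. Here both groups carried Cdx2f/f on one background. Neural crest and enteric markers summed to 225 and 330 CPM in the knockouts and 11.2 and 5.27 CPM in the controls, with 3 and 2 of the 5 markers at 0 in the knockouts, and their part was not tested.

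Side by side, Osr2 was called lower in all 4 knockout comparisons, the first 2 of which share their controls, and Pitx1 was called higher in those labelled E10 and E15. In the libraries labelled E13, Pitx1 averaged 22.3 CPM against 23.9 CPM in the E16 controls and was not called, and Osr2 had no read. The size of the change differed between the groups labelled E10 (early) and E15 (late), a contrast that leaves out those labelled E13. The E10 effect at E16 minus the E15 effect at E18 was 1.46 ± 0.36 for Pitx1 (adjusted p = 0.00219) and -2.86 ± 0.84 for Osr2 (adjusted p = 0.009). These were the 2 genes called in that contrast, where 41.1% of all genes were called. Cre line, tamoxifen, age and the way the epithelium was isolated differ along with the deletion day and cannot be told apart from it. The Osr2 value was -4.81 without E10 replicate 3. For Sox2, Sox21, Trp63 and Osr1, whose E18 controls were all at 0, edgeR gave this difference with an SE of 127 log2 units or more (adjusted p = 1), whereas DESeq2 called it for Sox2 (adjusted p = 0.000488), Sox21 (adjusted p = 0.00275) and Trp63 (adjusted p = 0.00115).

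Between E12 and E16 the contrasts between organs themselves changed for most of the set: 6 of 7 genes for forestomach over hindstomach (20.2% of all genes), 5 for forestomach over intestine (30.8%) and 6 for hindstomach over intestine (20.3%). These values appear in the closing section. Those that use E12 hindstomach rest on the libraries with intestinal levels of Cdx2.

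Over the 13 embryonic group means of log2 CPM, given as a description with no test, over groups that differ in depth and in how the epithelium was isolated, Sox2 correlated with Sox21 (Pearson r = 0.891), Trp63 (0.866) and Osr1 (0.826), and Sox21 with Osr1 (0.843). Pitx1 was closest to Trp63 (0.782). Osr2 was negative with all other 6 genes, from -0.625 with Nkx6-3 to -0.247 with Osr1, and Nkx6-3 had -0.092 with Trp63. Among all genes that passed the filter, the 3 whose pattern was most like Sox2 were Gm20554 (0.956), Irx2 (0.947) and Crnde (0.915); Irx2 and Gm20554 lie next to each other in the genome. For Sox21 they were Ano1 (0.943), Gm20554 and 4930429B21Rik (both 0.927). Trp63 was most like Sptlc3 (0.95), Pax9 (0.946) and Crnde (0.942), and Pitx1 most like Hoxc5 (0.874), Hoxc4 (0.87) and Ccnd2 (0.866). For Nkx6-3 the list was Gm15816 (0.977), Gast (0.849), which encodes gastrin, and Gm9899 (0.799). Gm15816 lies near Nkx6-3 on the same chromosome with 2 genes between them. Osr1 was most like A730046J19Rik (0.957), Bmpr1b (0.943) and Pnck (0.937), and Osr2 most like Mtmr11 (0.857), Paqr9 and Fam107b (both 0.819). These places depend on the measure: ranked by Spearman's rho, all 3 genes of Osr1 gave way to Tulp1 (0.977), Fstl1 (0.974) and Maged1 (0.963), and Ano1 and 4930429B21Rik for Sox21, Crnde for Trp63, Hoxc5 and Hoxc4 for Pitx1, Gast for Nkx6-3, and Paqr9 and Fam107b for Osr2 were no longer among the first 3.

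Paralogs of the 7 genes were read in the same libraries. Nkx6-1 had 7.93 and 5.95 CPM in E12 forestomach, 33 and 21.4 CPM in E12 intestine, 31.4 and 36.5 CPM in E14 hindstomach, a mean of 8.81 CPM in E14 intestine and 13.2 CPM in E16 forestomach, and no read in the knockout labelled E10 or in its E16 intestine control. The 3 pancreas markers summed to 243.5 and 253 CPM in E12 intestine and 504.9 and 517.7 CPM in E14 hindstomach. In E16 hindstomach they summed to 476 and 566 CPM, beside a mean of 3.92 CPM of Nkx6-1. Their part was not tested. Trp73 was at most 2.48 CPM outside E16 forestomach, where it had 12.5 and 10.9 CPM. Trp53 was present in all groups, at 18.6 to 264 CPM. Sox1, Sox14 and Pitx3 did not pass the filter, and Sox3 stayed at or below 2.42 CPM.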

How the data were processed

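RNA-seq of 31 of the 74 samples was used. Chromatin data (38 ATAC and 5 ChIP libraries) did not enter. The values are raw read counts per gene as the authors deposited them, with no normalization; STAR 2.5.3a, HTSeq and the build mm9 are named in the submitters' processing notes, and strand handling is not given in the sources used here. Reads were 75 bp single-end, from SMARTer-Seq v4 libraries for embryos and TruSeq V2 for adults, per the labels' protocols. E12 to E16 epithelium was trypsinised and sorted for Epcam, and E18 and adult villi were released with EDTA. Adult columns held 2 blank cells each, and closing them up changed the Trp63 counts from 0, 2, 0 and 0 to 0, 0, 2 and 0; over the 1676 genes between the blanks, Spearman rho with E18 libraries rose from 0.28 to 0.295 as deposited to 0.929 to 0.962. A further 2 columns matched no sample and were not used.

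Python 3.11.15, R 4.3.3 and edgeR 4.0.16 were used: filterByExpr (minimum count 10), TMM scaling, glmQLFit and glmQLFTest with Benjamini-Hochberg adjustment over all genes tested. The 27 embryonic libraries (13 groups) were fitted together and the 4 adult libraries apart; a standard error is the log2 fold change over the root of F. A group at 0 was set to a floor of 3 counts per library, the strictest over its libraries; group totals of 1 to 3 counts got a ratio with a 95% exact binomial interval. Floors and intervals cover counting error only. On simulated counts the test recovered 93 of 100 genes changed by 2 log2 units and 98 of 100 changed by 3 for E16 forestomach against intestine (16266 genes), with 10 false calls. DESeq2 1.42.0 was an alternative. The genes named are the 7 genes, their paralogs, Cdx2 and Epcam as label checks, the 3 genes most correlated with each, and up to 3 called genes per direction of each list. Some genes that this rule names are not reported here. The genes, lists and comparisons were chosen with earlier results of these data known. Of 24015 symbols, 22709 matched a gene name table. Replicates of a group differed by more than sampling noise (chi-square over degrees of freedom 1.53 to 132). Same-numbered libraries did not deviate together, with correlations of -0.038 to 0.097 over 42 pairs.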

Additional observations from a re-analysis of the deposited data

Results flagged for a closer look

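Each value here is the change of an organ contrast between E12 and E16, or of the knockout effect between deletion days, and each passed edgeR's test of that difference. For forestomach over hindstomach the log2 contrast at E16 minus that at E12 was -3.13 for Sox2, -5.47 for Sox21, 3.5 for Trp63, -1.06 for Pitx1, -16.71 for Nkx6-3 and 8.63 for Osr2. The Pitx1 value was not called with relative log expression scaling (-0.85) or without any 1 of 6 of the libraries. The Nkx6-3 value rests on groups near 0, with at most 2 reads per library in E12 hindstomach and at most 4 in E16 forestomach. For forestomach over intestine it was 9.31 for Trp63, 3.13 for Pitx1, -9.03 for Nkx6-3, 3.15 for Osr1 and 6.24 for Osr2. The Trp63 value rests on E16 intestine at 0 and was not called without E12 intestine replicate 2 (2.6). The Nkx6-3 value was -14.98 without E16 forestomach replicate 1, and the Osr1 value 5.26 without E16 intestine replicate 1. For hindstomach over intestine it was 4.53 for Sox2, 9.56 for Sox21, 4.19 for Pitx1, 7.68 for Nkx6-3, 5.0 for Osr1 and -2.39 for Osr2. Of these, Sox2 was 10.89 without E16 intestine replicate 1, the one with its reads, Sox21 was not called without E12 intestine replicate 2 (4.94), Nkx6-3 without E12 intestine replicate 1 (3.29), and Osr2 without any 1 of 6 of the libraries (-2.30 to -2.48). The Sox21 value also rests on E16 intestine, which had at most 1 Sox21 read per library. The contrasts with E12 hindstomach use libraries whose Cdx2 was at the intestinal level, and Osr1 and Osr2 at E16 stood beside mesenchyme markers of 21380 and 26550 CPM in forestomach; the part of either was not tested. The knockout effect of deletion at E10, seen at E16, minus that of deletion at E15, seen at E18, was 1.46 for Pitx1 and -2.86 for Osr2, the latter -4.81 without E10 replicate 3.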

How the results depend on the processing

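Over 174 results for single genes and 2640 alternatives, 2484 kept direction and call, 92 lost the call, 50 gained it and 14 changed sign, each in a result not called with all libraries. Trp63 in intestine at E14 against E12 ran from -1.34 to 6.32 with 1 library left out and was called at 6.32, without E12 intestine replicate 2, the library with all its E12 reads. The other 13 values of changed sign were not called. With 1 library left out, forestomach at E14 against E12 gave -0.17 to 0.14 for Sox2 (0.061 in the fit of the compared groups) and -0.13 to 1.65 for Osr2. Osr1 ran from -0.54 to 1.30 for hindstomach against intestine at E12 and from -0.68 to 0.088 for intestine at E14 against E12. Intestine at E16 against E14 gave -4.35 (without E16 replicate 1, which held all E16 reads) to 3.22 for Sox2 and -0.071 to 0.78 for Nkx6-3. Pitx1 ran from -0.25 to 0.075 in the knockout labelled E13. Nkx6-3 ran from -1.23 to 3.26 in the knockout labelled E15 and from -1.76 to 2.73 for the early minus late knockout difference, both changing sign without E18 control replicate 2. Without E12 intestine replicate 2 the E16 minus E12 change over intestine was lowest for Sox21 in forestomach (-0.54 to 6.70) and Trp63 in hindstomach (-0.90 to 6.77). Of 394 alternatives for the 26 counts of called genes, 373 stayed within 1.5 times. Fitting the compared groups alone gave 3 genes for forestomach against intestine at E12, 1 for hindstomach against intestine at E12, 0 for intestine at E14 against E12, 2 for intestine at E18 against E16 and 3 for the change of the hindstomach over intestine contrast; that fit has fewer libraries to estimate the spread. Beside the 0 from edgeR, 2 of the 7 genes had an unadjusted p below 0.05, and DESeq2 on all embryonic libraries called 2. In adult ileum this fit equals the one reported and was not run. For forestomach against intestine at E12, the genes lost in the fit of the compared groups were Sox21, Trp63, Pitx1 and Nkx6-3 (adjusted p = 0.0577, 0.26, 0.0689 and 0.166). DESeq2 gave 5 for intestine at E16 against E14 and 5 for the difference between early and late knockout, thinning to the shallowest library gave 2 for intestine at E18 against E16, and no fold minimum gave 2 in adult ileum.

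Leaving out 1 library gave 2 to 4 genes for hindstomach against intestine at E12 (lowest without hindstomach replicate 1), 3 to 4 for forestomach against hindstomach at E16, 1 to 3 for hindstomach at E16 against E14 (lowest without E14 replicate 1 or E16 replicate 2), 1 to 3 for intestine at E14 against E12, 2 to 4 for intestine at E18 against E16, 3 to 5 for the knockout labelled E13 (highest without control replicate 1) and 0 to 1 in adult ileum, where 0 came from edgeR without knockout replicate 2 (both tested genes had an unadjusted p below 0.05; DESeq2 with all libraries called 1). With replicate number as a block, a number the libraries share without being paired, forestomach against hindstomach at E14 had 6 genes, forestomach against intestine at E16 had 7, intestine at E14 against E12 had 3 and the knockout labelled E13 had 4; no count moved by over 1.5 times. Relative log expression scaling moved the median of all genes by up to 0.26, for forestomach at E16 against E14, and reversed no called gene of the set. Fits without the E12 hindstomach, E13-labelled or E16 forestomach libraries were added after seeing the data. Depth limits genes with few reads, most in the E16 forestomach libraries, where 3 reads stand for 0.463 and 0.459 CPM.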
